A study of Mus musculus with 16 samples.

Results

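Leukocytes leave the blood through a sequence of adhesion steps, and the genes described here encode the ligands and receptors of those steps: Vcam1, Icam1, Icam2, Sele, Selp, Madcam1, Itga4, Itgal, Itgam and Itgb2. They were chosen by gene name, with earlier results of these data known. Of the 10 names, 9 matched a gene symbol in the count table of 29695 genes, and all 9 passed the filter on low counts that left 15984 genes for testing. The row of Madcam1 carried no symbol and was found through its gene identifier. It did not pass the filter.

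The suprarenal aorta was sequenced as bulk poly-A RNA in male mice, 4 libraries per group. Wild-type (WT) mice were C57BL/6, and knockout (KO) mice lacked Vamp8 (Vamp8-/-), a gene of vesicle fusion, in all cells as far as the labels say. Either genotype received saline or angiotensin II (AngII), a vasoconstrictor peptide, at 1000 ng/kg/min for 5 days from a minipump under the skin, so the controls carried a pump too. Vessels were flushed with saline and stripped of surrounding tissue, and the submitters set aside vessels whose wall had bled or looked diseased. Neither the age nor the number of mice per library is stated, and libraries of 1 group are described as biological replicates.

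Selectins on the endothelium, E-selectin and P-selectin, slow passing leukocytes by binding sugars on their surface. Endothelial ligands of the immunoglobulin family then hold them: VCAM-1 binds integrins that contain the alpha 4 chain, while ICAM-1 and ICAM-2 bind the beta 2 integrins LFA-1 and Mac-1. Inflammatory cytokines acting through NF-kB induce VCAM-1, ICAM-1 and E-selectin, whereas ICAM-2 is present on resting endothelium. MAdCAM-1 is the homing ligand of gut vessels.

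Of the 10 genes, 6 had an entry in the RefSeq promoter table used here (GRCm38.p6). The 250 bases before the start of Icam1 and Sele are shown because both genes are textbook NF-kB targets and neither passed the test in any comparison below. Capitals mark matches to GGNNNTTCC on either strand, a short form of the NF-kB consensus, which was chosen with these sequences in view. The Icam1 window is chr9:21015690-21015939 and the Sele window chr1:164047984-164048233, both on the plus strand.
Icam1: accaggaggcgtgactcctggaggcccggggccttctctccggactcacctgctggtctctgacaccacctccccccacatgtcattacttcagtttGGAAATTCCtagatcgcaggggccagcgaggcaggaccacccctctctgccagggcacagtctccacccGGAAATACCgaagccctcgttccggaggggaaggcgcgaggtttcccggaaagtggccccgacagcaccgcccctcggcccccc
Sele: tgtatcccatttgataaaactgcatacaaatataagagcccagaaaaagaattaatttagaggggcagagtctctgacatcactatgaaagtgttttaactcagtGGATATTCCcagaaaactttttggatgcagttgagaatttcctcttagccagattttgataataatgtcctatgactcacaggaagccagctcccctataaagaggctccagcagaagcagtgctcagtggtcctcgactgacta
Icam1 held GGAAATTCC, which matches on both strands, 153 to 145 bases before the start, and GGAAATACC, a match on the minus strand, 84 to 76 bases before it. Sele held GGATATTCC 145 to 137 bases before its start. Such a match was present in 4 of the 6 windows (Icam1, Sele, Selp and Madcam1, not Itga4 or Itgam) and in 15.7% of 32851 promoter windows of this length.

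Library totals ran from 13284804 to 21643548 reads. In WT libraries Vamp8 averaged 51.9 ± 4.64 CPM with saline and 55.8 ± 3.67 CPM with AngII (SD, n = 4; CPM is the read count scaled to library size), against 22.9 ± 5.90 CPM in KO AngII. In KO saline 3 libraries lay between 24.9 and 31.4 CPM, but the library labelled KO saline replicate 1 had 53.3 CPM, within the WT range. The labels do not say which part of the gene is deleted. The KO against WT log2 difference of Vamp8 was -1.29 under AngII (edgeR adjusted p = 0.00981) and -0.61 under saline (edgeR adjusted p = 0.147). Defining endothelial genes were present in every library, with 0 of 12 at 0 and a sum of 994 to 2637 CPM. KO AngII replicate 4 stood apart by nerve and adrenal genes, 2948 CPM in sum against 5.08 to 190 CPM in the other 15 libraries. KO saline replicate 3 stood apart by skeletal muscle genes, 543 CPM in sum against 3.03 to 21.6 CPM in the other 15. Mitochondrial genes took 30.5 ± 2.49% of reads in KO saline and 12.6 to 16.1% on average in the other groups. The 2725 genes without a symbol were exactly those with 0 reads in all 8 WT libraries, and the sources used here do not say whether both genotypes went through 1 counting run. A difference between genotypes can therefore not be told apart from a difference in counting.

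Per kilobase of exon, Icam2 had the highest level of the set, 15.5 ± 7.32 CPM per kb (SD, n = 16 libraries of all groups). Vcam1 came next at 8.45 ± 5.27 CPM per kb. Icam1 was at 4.88 ± 1.28 and Itgb2 at 4.18 ± 1.78 CPM per kb. Selp was at 2.32 ± 1.27 CPM per kb. The integrin alpha chains followed with 1.13 ± 0.79 for Itgam, 0.73 ± 0.19 for Itga4 and 0.53 ± 0.37 CPM per kb for Itgal, and Sele was lowest of the 9 tested genes at 0.45 ± 0.34 CPM per kb. Each gene overlapped the next in this order within the SD, which includes the differences between groups.

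Vcam1 was about 3-fold higher with AngII than with saline in WT aortae, and no other member passed the test there. It no longer passed on leaving out any of 13 of the 16 libraries. In KO aortae no member passed the test for AngII against saline, and the KO AngII level of Vcam1 stayed in the range of the saline groups. The difference between the responses of the genotypes did not pass for Vcam1 (interaction, edgeR adjusted p = 0.361). Icam2 was about 2-fold higher in KO than in WT under saline, and no longer passed on leaving out any of 8 libraries. The remaining members, among them Icam1 and the selectins, passed in no comparison. In WT under AngII 1 of 9 members was called against 0.444% of all genes tested, where a call means that the p of edgeR, after Benjamini-Hochberg correction for 15984 genes, is under 0.05. An unadjusted p under 0.05 was reached there by 2 members, Vcam1 and Itgam, and by 8.8% of genes, and DESeq2 and limma voom called 1 member each, Vcam1, against 1.77% and 1.59% of genes.

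**Figure D1:**
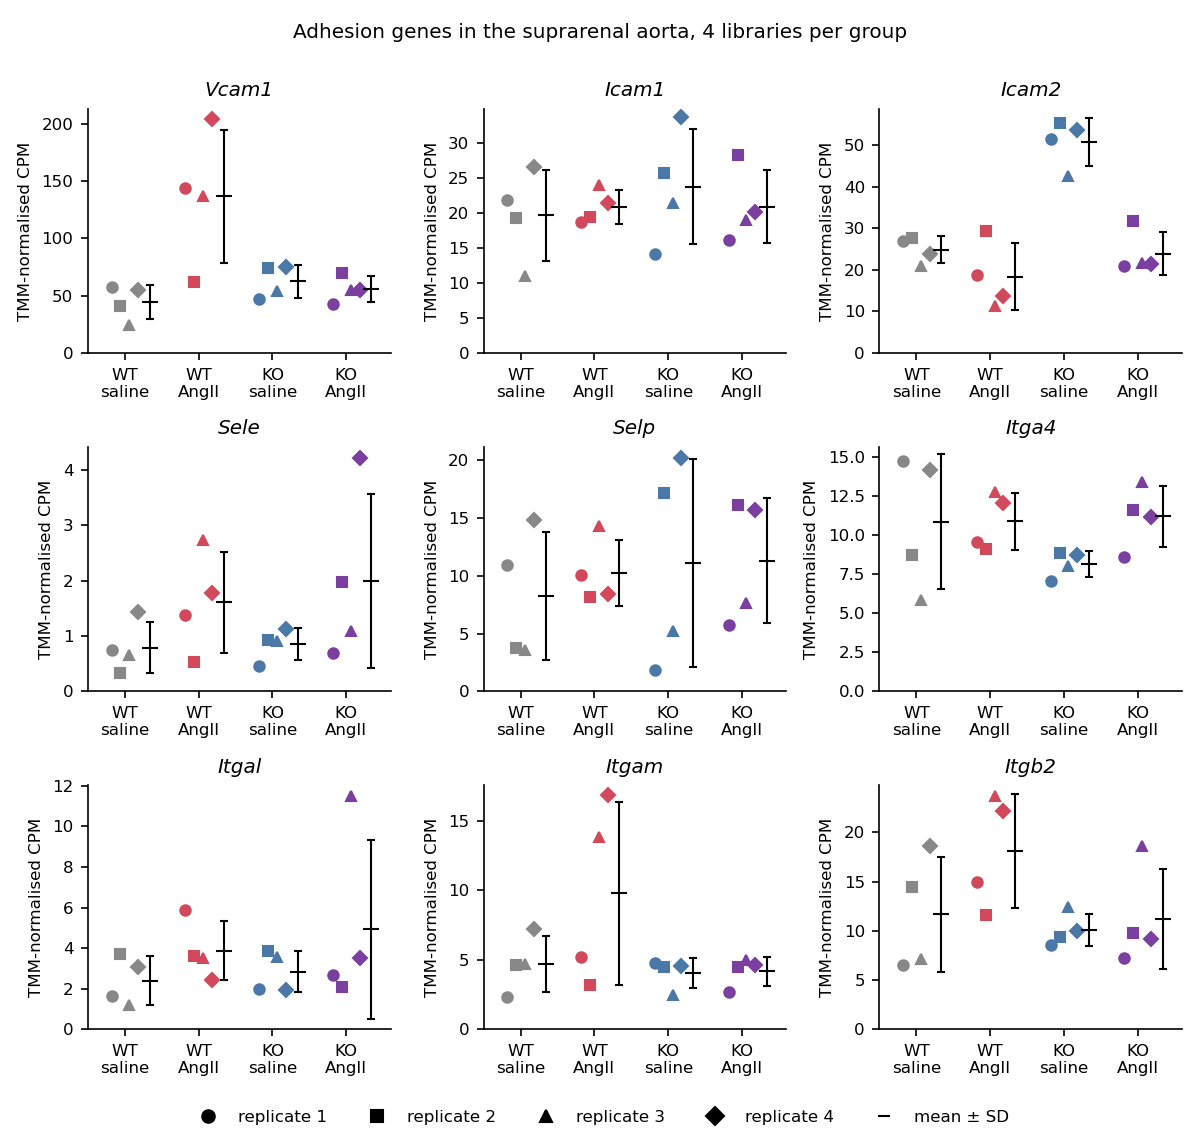
TMM-normalised CPM (vertical axes, starting at 0) of the 9 tested adhesion genes in each library. Symbols are replicate numbers, and bars are the mean ± SD of 4 libraries. All 4 WT AngII libraries of Vcam1, from 62.2 to 204 CPM, lie above the 4 WT saline libraries, and the 4 KO saline libraries of Icam2, from 42.4 to 55.2 CPM, lie above every other library.

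Vcam1, which encodes a ligand of alpha 4 integrins, was at 57.5, 41.0, 24.6 and 55.3 CPM in the WT saline replicates 1 to 4. In WT AngII it was at 144, 62.2, 137 and 204 CPM. In KO the values were 47.1, 74.0, 53.7 and 75.4 CPM under saline and 42.9, 70.1, 55.3 and 55.4 CPM under AngII. The WT AngII libraries did not overlap WT saline, although replicate 2 was only just above it and lay below the highest KO libraries. In falling order the group means were 137 ± 58.1 CPM in WT AngII, 62.6 ± 14.3 CPM in KO saline, 55.9 ± 11.1 CPM in KO AngII and 44.6 ± 15.2 CPM in WT saline (SD, n = 4), and the last 3 overlapped one another. In bulk tissue such a level cannot be assigned to a cell type. Nor can it be split into the number of cells of a type and the RNA per cell.

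The log2 fold change of Vcam1 under AngII in WT was 1.62 ± 0.32 (SE), a 3.07-fold rise with an edgeR adjusted p of 0.0415. By p it ranked 60 of all genes tested. It was the only member whose WT groups did not overlap, and 6.24% of all genes did not overlap there. In KO the log2 fold change was -0.16 ± 0.32 (edgeR adjusted p = 0.794), with a 95% interval from -0.85 to 0.53. KO against WT gave 0.49 ± 0.32 under saline (edgeR adjusted p = 0.368) and -1.29 ± 0.32 under AngII (edgeR adjusted p = 0.0514), where WT AngII replicate 2 lay within the KO range. The difference between the responses of the genotypes, tested itself as an interaction, was -1.78 ± 0.45 on the log2 scale (unadjusted p = 0.0013, edgeR adjusted p = 0.361). A difference in the Vcam1 response between WT and KO therefore did not pass the test. AngII against saline in WT and KO against WT under AngII share the WT AngII libraries.

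The call of Vcam1 in WT was close to the threshold, and leaving out most single libraries ended it. Leaving out 1 library at a time gave log2 fold changes from 1.36 to 1.87, with edgeR adjusted p from 0.0108 to 0.176. It was lost on leaving out any of 13 of the 16 libraries: each WT saline and KO saline library, WT AngII replicates 1, 3 and 4, and KO AngII replicates 2 and 3. The largest loss came without WT AngII replicate 4, the highest library (log2 1.36, edgeR adjusted p = 0.176). Without WT saline replicate 1 the log2 fold change was 1.77 (edgeR adjusted p = 0.0878). Genes called over the whole table then went from 71 to 3. With only the WT groups in the fit the log2 fold change was 1.59 (edgeR adjusted p = 0.209), while DESeq2 gave 1.61 (adjusted p = 0.000264). Without WT AngII replicate 2, the KO against WT difference under AngII was -1.55 (edgeR adjusted p = 0.00882). That difference also passed without WT saline replicate 3 (-1.31, edgeR adjusted p = 0.0404) and without the library labelled KO saline replicate 1 (-1.32, edgeR adjusted p = 0.0485). Averaged over both genotypes the AngII effect on Vcam1 was 0.73 ± 0.22 (edgeR adjusted p = 0.15), and it passed without WT AngII replicate 2 (0.85, edgeR adjusted p = 0.0375).

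Markers of other cell types varied among the WT AngII libraries too. The 8 adventitial fibroblast markers summed to 6458, 5802, 9356 and 16015 CPM in the WT AngII replicates, 4260 to 7579 CPM in WT saline and 2873 to 4613 CPM in the KO libraries of both treatments. None was called by edgeR for AngII in WT (3 had an unadjusted p under 0.05, against 8.8% of all genes, 2 of them higher). For KO against WT under saline 3 of the 8 were positive and 5 negative. Ly6a was called higher in KO there (log2 0.68, edgeR adjusted p = 0.0387), against 3.01% of all genes. Under AngII all 8 were negative in KO against WT, with a median log2 difference of -0.71 against 0.04 for all genes. There 5 had an unadjusted p under 0.05, against 17.9% of all genes, and 2 were without overlap, against 9.35%. Col1a1, a fibrillar collagen, had a KO against WT log2 difference of -1.65 under AngII (edgeR adjusted p = 0.0499), where 2.03% of all genes were called. That call was kept on leaving out WT saline replicate 2, WT AngII replicate 2, the library labelled KO saline replicate 1 or KO AngII replicate 3 and lost on leaving out any of the other 12 libraries (log2 -1.86 to -1.24, edgeR adjusted p from 0.0289 to 0.178). The 10 macrophage markers summed to 321, 254, 500 and 611 CPM in WT AngII replicates 1 to 4, against 219 to 413 CPM in WT saline and 196 to 287 CPM in the 8 KO libraries. By edgeR 0 of 10 were called in any comparison, with 3 higher at an unadjusted p under 0.05 for AngII in WT, against 8.8% of all genes in either direction, and 8 lower for KO against WT under AngII, against 17.9%. The 8 monocyte genes, which include the matrix genes Fn1 and Vcan, summed to 1001 to 2903 CPM in WT saline and 2497 to 5725 CPM in WT AngII, and in KO to 665 to 1087 CPM with saline and 1753 to 3222 CPM with AngII. None of the 7 tested was called for AngII in either genotype, where 5 in WT and 2 in KO had an unadjusted p under 0.05, against 8.8% and 19.2% of all genes. Fn1, which encodes fibronectin, was called for the average AngII effect over both genotypes (log2 1.26, edgeR adjusted p = 0.0251), where 1.04% of all genes were called. Leaving out any of 8 of the 16 libraries ended that call (edgeR adjusted p from 0.0163 to 0.0693): WT saline 3, WT AngII 3 and 4, KO saline 1, 3 and 4, and KO AngII 2 and 3. Vcan, a matrix proteoglycan, was called lower in KO than in WT under saline (log2 -1.35, edgeR adjusted p = 0.0232), against 3.01% of all genes. Of the 7 tested monocyte genes, 4 had a positive and 3 a negative log2 difference in that comparison. Their median was 0.34 against 0.05 for all genes. At an unadjusted p under 0.05, 1 was higher and 2 were lower, against 21.8% of all genes. No marker of these 3 lists was at 0 throughout a group. WT AngII replicate 2, with the lowest Vcam1 of its group, also had the lowest sums of all 3 lists in that group. Their part in the Vcam1 result was not tested.

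Endothelial markers were not higher where Vcam1 was. They summed to 1188, 1634, 995 and 994 CPM in the WT AngII replicates and to 1299 to 1618 CPM in WT saline. The KO sums were 1274 to 2637 CPM with saline and 1065 to 2359 CPM with AngII. By edgeR 0 of 12 were called in any comparison, and 0 of 12 had an unadjusted p under 0.05 for AngII in WT, where 11 had a negative log2 fold change. The log2 ratio of Vcam1 to the mean of these markers was -1.0 ± 0.68 in WT saline and 0.80 ± 1.03 in WT AngII (SD, n = 4). This ratio is not a level per endothelial cell, since bulk RNA does not show which cells held the Vcam1 RNA. The difference of 1.80 had p = 0.0857 by an exact two-sided permutation test (adjusted p = 0.171 over 4 comparisons; the smallest p that 4 against 4 allow is 0.0286). WT AngII replicate 2, at -0.67, lay among the WT saline values, and without it the difference was 2.29 (exact permutation p = 0.0286, the smallest that 3 against 4 allow). In KO the ratio was -0.99 ± 0.16 under saline and -0.74 ± 0.31 under AngII (difference 0.24, exact permutation p = 0.229, adjusted p = 0.305). KO and WT differed by -1.54 under AngII (exact permutation p = 0.0571, adjusted p = 0.171) and by 0.01 under saline (exact permutation p = 0.971). Under AngII the difference was -2.03 without WT AngII replicate 2 (unadjusted exact permutation p = 0.0286). There too 7 of the 8 libraries left out in turn gave the same outcome, with differences from -2.03 to -1.24 over all 8.

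**Figure D2:**
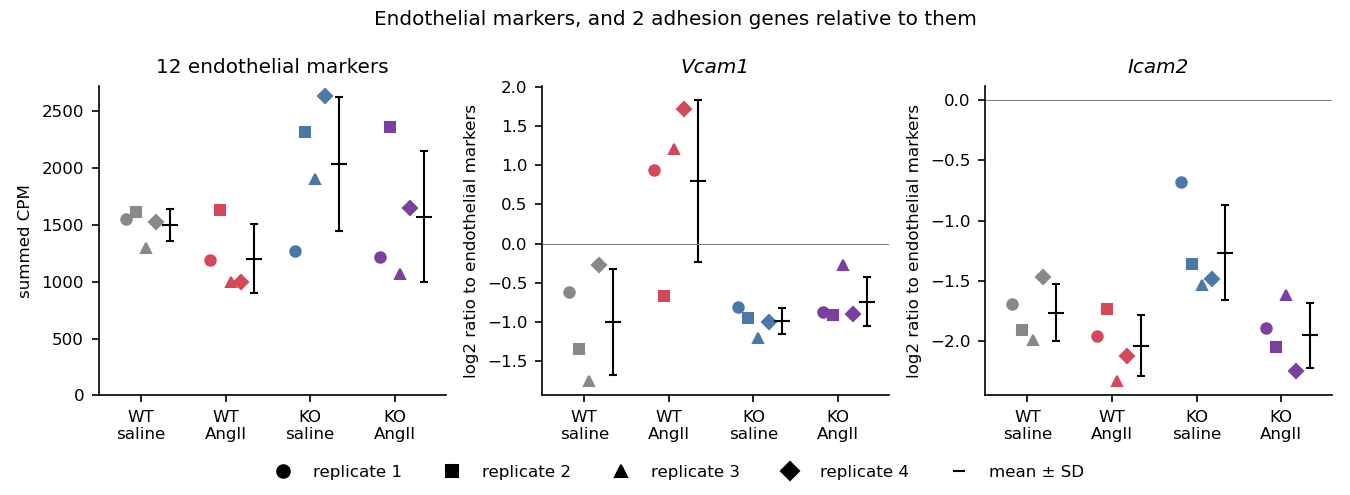
Left, summed CPM of 12 endothelial markers per library. Centre and right, the log2 ratio of Vcam1 and Icam2 to the mean of those markers. Bars are the mean ± SD of 4 libraries. For Vcam1, 3 WT AngII libraries (0.94 to 1.72) lie above all other libraries and replicate 2 does not. For Icam2, the library labelled KO saline replicate 1 is highest at -0.68.

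Icam2, the ICAM of resting endothelium, was at 27.0, 27.7, 20.8 and 23.9 CPM in WT saline. In KO saline it was at 51.5, 55.2, 42.4 and 53.6 CPM. In WT AngII the values were 18.8, 29.4, 11.2 and 13.7 CPM, and in KO AngII 20.9, 31.8, 21.5 and 21.3 CPM. All 4 KO saline libraries were above all other libraries, and the other 3 groups overlapped. KO against WT under saline was 1.03 ± 0.24 on the log2 scale (SE), a 2.04-fold difference with an edgeR adjusted p of 0.0355. It was the only member of 9 called or without overlap in that comparison, where 3.01% of all genes were called and 11.1% did not overlap. Under AngII the genotype difference was 0.39 ± 0.24 (edgeR adjusted p = 0.453).

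For AngII against saline in KO, the Icam2 mean was 23.9 ± 5.25 against 50.7 ± 5.71 CPM, with no overlap (7.77% of genes did not overlap there). The log2 fold change was -1.08 ± 0.24, and the edgeR adjusted p of 0.106 did not pass (0.0442 without WT AngII replicate 2). In WT the mean was 18.3 ± 8.05 against 24.8 ± 3.17 CPM (log2 -0.44 ± 0.24, edgeR adjusted p = 0.654). Averaged over both genotypes, Icam2 fell by 0.76 ± 0.17 on the log2 scale under AngII (edgeR adjusted p = 0.0459) and was the only member called, against 1.04% of all genes. The interaction was -0.64 ± 0.34 (edgeR adjusted p = 0.472), so unequal responses of the genotypes did not pass the test.

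The KO saline call of Icam2 was lost on leaving out any of 8 libraries: each KO saline library, WT saline replicates 1, 3 and 4, and WT AngII replicate 1. Without the library labelled KO saline replicate 1 the log2 difference was 0.98 (edgeR adjusted p = 0.0922), and without it and KO AngII replicate 4 it was 1.02 (edgeR adjusted p = 0.0604). Over all libraries left out in turn the log2 difference ran from 0.96 to 1.10 and the adjusted p from 0.00983 to 0.114. The average AngII call was lost on leaving out 14 of the 16 libraries in turn (log2 -0.93 to -0.68, edgeR adjusted p 0.0104 to 0.111).

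Other measures moved with Icam2. Relative to the endothelial markers, Icam2 had a log2 ratio of -1.77 ± 0.24 in WT and -1.27 ± 0.40 in KO with saline, and of -2.04 ± 0.25 in WT and -1.95 ± 0.27 in KO with AngII (SD, n = 4). The KO saline values, -1.54 to -0.68, overlapped WT saline, -1.99 to -1.47. Of the 12 endothelial markers, 11 were positive for KO against WT under saline, with median log2 0.49 against 0.05 for all genes. For AngII in KO 10 were negative, with median log2 -0.45 against 0.02, and for the average AngII effect 11 were negative. In these comparisons 3, 3 and 5 had an unadjusted p under 0.05, against 21.8%, 19.2% and 15.1% of all genes. Over 16 libraries the log2 level of Icam2 went with that of Pecam1, an endothelial junction protein, at r = 0.81 (0.69 within groups), a description of libraries that share tissue make-up and scaling. For the 1580 genes with 1359 to 2112 exon bases the median log2 difference was 0.26 for KO against WT under saline and -0.19 for AngII in KO, both of the sign of Icam2. For AngII in WT and for KO against WT under AngII the medians of those genes were 0.04 and -0.01, where Icam2 had -0.44 and 0.39. The part of endothelial content, gene length and mitochondrial share in the Icam2 result was not tested.

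Icam1, the inducible partner of LFA-1 and Mac-1, had nearly the same mean in each group. With saline it was 19.7 ± 6.51 CPM in WT and 23.7 ± 8.22 CPM in KO, and with AngII 20.9 ± 2.42 and 20.9 ± 5.24 CPM (SD, n = 4). The WT saline libraries were at 21.8, 19.2, 11.03 and 26.6 CPM and the WT AngII libraries at 18.7, 19.4, 24.1 and 21.5 CPM, so the groups overlapped. Its log2 fold change under AngII was 0.09 ± 0.27 in WT, with a 95% interval from -0.51 to 0.68, and -0.18 ± 0.27 in KO (edgeR adjusted p = 1 and 0.724). The Vcam1 estimate of 1.62 lies outside the WT interval of Icam1, but has an error of its own. The responses of Vcam1 and Icam1 were not tested against each other.

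**Figure D3:**
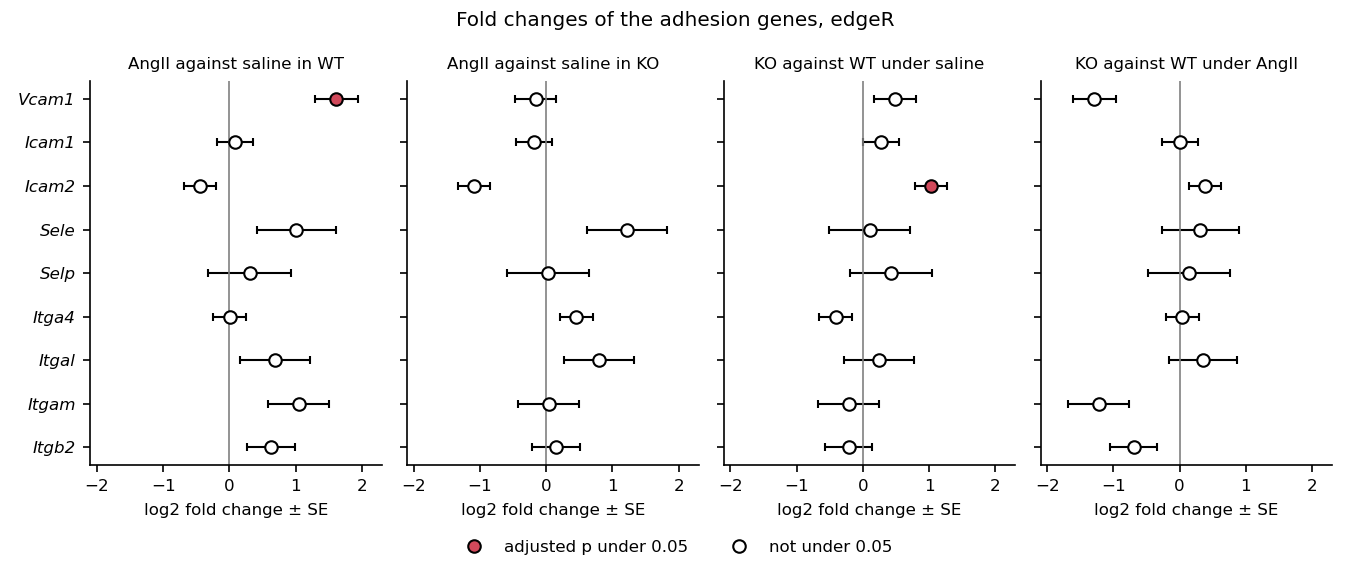
log2 fold changes ± SE (horizontal axes) of the 9 tested adhesion genes in 4 comparisons, from edgeR. Filled points have an adjusted p under 0.05: Vcam1 for AngII in WT (1.62) and Icam2 for KO against WT under saline (1.03).

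Sele, E-selectin, is made by activated endothelium and was low, with 5 to 74 reads per library. It was at 0.75, 0.33, 0.65 and 1.43 CPM in WT saline and at 1.37, 0.53, 2.74 and 1.78 CPM in WT AngII. In KO it was at 0.45, 0.92, 0.91 and 1.13 CPM under saline and at 0.70, 1.97, 1.09 and 4.22 CPM under AngII. AngII and saline libraries overlapped in both genotypes. AngII gave log2 fold changes of 1.01 ± 0.60 in WT and 1.22 ± 0.60 in KO (edgeR adjusted p = 0.698 and 0.276). The highest value came from KO AngII replicate 4, the library with nerve and adrenal genes, and without it the KO value was 0.55 (edgeR adjusted p = 0.648).

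Selp, P-selectin, is stored in endothelial granules and platelets, and it varied more within groups than between them. In WT it spanned 3.60 to 14.8 CPM with saline and 8.15 to 14.3 CPM with AngII, and in KO 1.81 to 20.2 and 5.74 to 16.2 CPM. The library labelled KO saline replicate 1 had the lowest value of all. No comparison passed, and log2 fold changes under AngII were 0.31 ± 0.62 in WT and 0.03 ± 0.62 in KO (edgeR adjusted p = 0.995 and 0.983).

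Madcam1 had 0 reads in 15 libraries and 1 read in KO AngII replicate 4, or 0.0571 CPM. A count of 0 allows up to 3 reads, which is 0.148 to 0.230 CPM in these libraries by counting error alone. No fold is given.

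Itgb2, the beta 2 chain shared by LFA-1 and Mac-1, was at 6.51, 14.5, 7.14 and 18.6 CPM in WT saline. In WT AngII it was at 15.0, 11.6, 23.7 and 22.2 CPM, so the groups overlapped. KO libraries lay between 7.21 and 18.6 CPM. AngII gave it a log2 fold change of 0.63 ± 0.36 in WT and 0.15 ± 0.36 in KO (edgeR adjusted p = 0.672 and 0.832).

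Itgam, the alpha chain of Mac-1 on myeloid cells, was high in single WT AngII libraries. It was at 2.305, 4.63, 4.72 and 7.22 CPM in WT saline and at 5.22, 3.21, 13.8 and 16.8 CPM in WT AngII. The KO libraries stayed between 2.46 and 4.98 CPM. WT AngII replicates 3 and 4, the libraries with the highest macrophage sums of all 16, were far above the rest, and replicates 1 and 2 were within the WT saline range. The log2 fold change in WT was 1.05 ± 0.46 (edgeR adjusted p = 0.516), and KO against WT under AngII was -1.22 ± 0.46 (edgeR adjusted p = 0.165).

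Itgal, the alpha chain of LFA-1 on lymphocytes, was at 1.63, 3.72, 1.18 and 3.07 CPM in WT saline and at 5.90, 3.61, 3.54 and 2.44 CPM in WT AngII. In KO AngII it was at 2.66, 2.07, 11.48 and 3.54 CPM, and replicate 3 stood alone. That library had a B cell marker sum of 88.8 CPM, against 2.97 to 28.2 CPM in the other 15, and T and NK cell markers of 23.0 CPM. The T and NK cell sum was higher only in WT AngII replicate 1, at 34.8 CPM, the library with the next highest Itgal. The part of these cells in the Itgal values was not tested. AngII gave a log2 fold change of 0.69 ± 0.53 in WT and of 0.80 ± 0.52 in KO, and in KO it was -0.05 without replicate 3 (edgeR adjusted p = 0.824, 0.404 and 0.965).

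Itga4, the alpha 4 chain that binds VCAM-1, had the same mean in both WT groups: 10.8 ± 4.30 CPM with saline and 10.9 ± 1.81 CPM with AngII. The KO means were 8.15 ± 0.83 and 11.2 ± 1.96 CPM (SD, n = 4). Individual libraries lay between 5.84 and 14.7 CPM and overlapped in every comparison. Its log2 fold change under AngII was 0.00 ± 0.25 in WT and 0.46 ± 0.25 in KO (edgeR adjusted p = 1 and 0.325).

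Set against Ptprc (CD45), carried by all leukocytes, the mean of the 4 integrin chains showed no difference that passed a test. The chains were not tested 1 by 1 against Ptprc. The mean log2 ratio was -1.16 ± 0.32 in WT and -1.08 ± 0.27 in KO with saline, and -1.26 ± 0.28 and -1.23 ± 0.47 with AngII (SD, n = 4). The 4 differences between groups lay between -0.15 and 0.08, with exact permutation p from 0.657 to 0.914 (each 0.914 after adjustment over the 4). Ptprc itself averaged 14.9 ± 7.33 CPM with saline and 21.7 ± 3.02 CPM with AngII in WT (edgeR log2 0.53 ± 0.43, adjusted p = 0.843), and reached 42.8 CPM in KO AngII replicate 3. Neutrophil markers were scarce: 7 of them summed to 0.649 to 6.91 CPM, and Mmp8 and Camp were at 0 in all WT AngII libraries.

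Over the whole set, 8 of the 9 tested members had a positive log2 fold change under AngII in WT, with a median of 0.63 against -0.01 for all genes, but 1 passed. In KO the median was 0.04 against 0.02 and no member was called by edgeR, where 0.0501% of genes were. There, 1 member had an unadjusted p under 0.05 (19.2% of genes), and DESeq2 and limma voom each called 1 (4.64% and 3.51% of genes), which was Icam2. KO against WT under AngII had a median of 0.04 against 0.04 and no call by edgeR (2.03% of genes). In it 2 members, Vcam1 and Itgam, had an unadjusted p under 0.05 (17.9% of genes), none was without overlap (9.35% of genes), DESeq2 called Vcam1 (7.77% of genes) and voom none (3.63% of genes). The interaction had a median of -0.28 against 0.01 and no call by edgeR (0.0188% of genes). In it 1 member, Vcam1, had an unadjusted p under 0.05 (11.2% of genes) and was called by DESeq2 (0.684% of genes), and voom called none (1.08% of genes). KO against WT under saline had a median of 0.24 against 0.05. The comparisons share groups and are not independent.

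Levels of some members went together across the 16 libraries, given as Pearson's r of log2 levels and as a description, since the libraries share scaling and tissue make-up. The value after removing the group means, r within groups, follows each in parentheses. Icam1 and Selp had r = 0.82 (0.86), Itgam and Itgb2 0.76 (0.65), Sele and Selp 0.66 (0.65), and Vcam1 and Itgam 0.65 (0.51). Within groups Vcam1 went most with Itga4 and Icam1, at 0.75 and 0.69, where the pooled r was 0.47 and 0.48. Vcam1 went with the macrophage gene Adgre1 at 0.76 (0.62). With endothelial Pecam1 the sign differed, -0.24 pooled and 0.24 within groups. With endothelial Cdh5 Vcam1 had -0.29 (-0.20), and with Ptprc 0.42 (0.21). Itgb2 and Itgal went with Ptprc at 0.87 (0.86) and 0.85 (0.89), and Itgal with the T cell gene Cd3e at 0.70 (0.85). Itgam and Itga4 went less with Ptprc, at 0.48 (0.33) and 0.41 (0.31).

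By a rule based on this r alone, the 8 genes most like Vcam1 among 14407 candidates were Homer3 (r = 0.93), Tnmd (0.90), Emp1 (0.88), Gm5637 (0.88), Ctsk (0.87), Tnfrsf11b (0.86), Lum (0.86) and Dusp7 (0.85). Within groups their r with Vcam1 was 0.66 to 0.88. Lum, a collagen-binding proteoglycan, is also on the fibroblast list. Tnfrsf11b, the decoy receptor osteoprotegerin, averaged 15.95 ± 2.53 CPM with saline and 79.9 ± 49.0 CPM with AngII in WT, and 19.9 ± 6.02 and 24.1 ± 6.25 CPM in KO. It was called for AngII in WT (log2 2.32 ± 0.40, edgeR adjusted p = 0.0207), in the libraries that also chose it. The call was lost on leaving out any WT saline library or WT AngII replicate 3 or 4 (log2 1.97 to 2.61 and edgeR adjusted p from 0.00655 to 0.1 over all 16), and with only the groups compared (edgeR adjusted p = 0.104). Ctsk, a collagen-degrading protease, was at 48.2 ± 13.4 and 110.0 ± 49.6 CPM in WT and at 40.6 ± 8.07 and 40.8 ± 9.16 CPM in KO (SD, n = 4). The 5 genes most like Itgb2 were Cd84, Nckap1l, Ncf4, Pld4 and Ms4a6b, with r from 0.91 to 0.94.

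**Figure D4:**
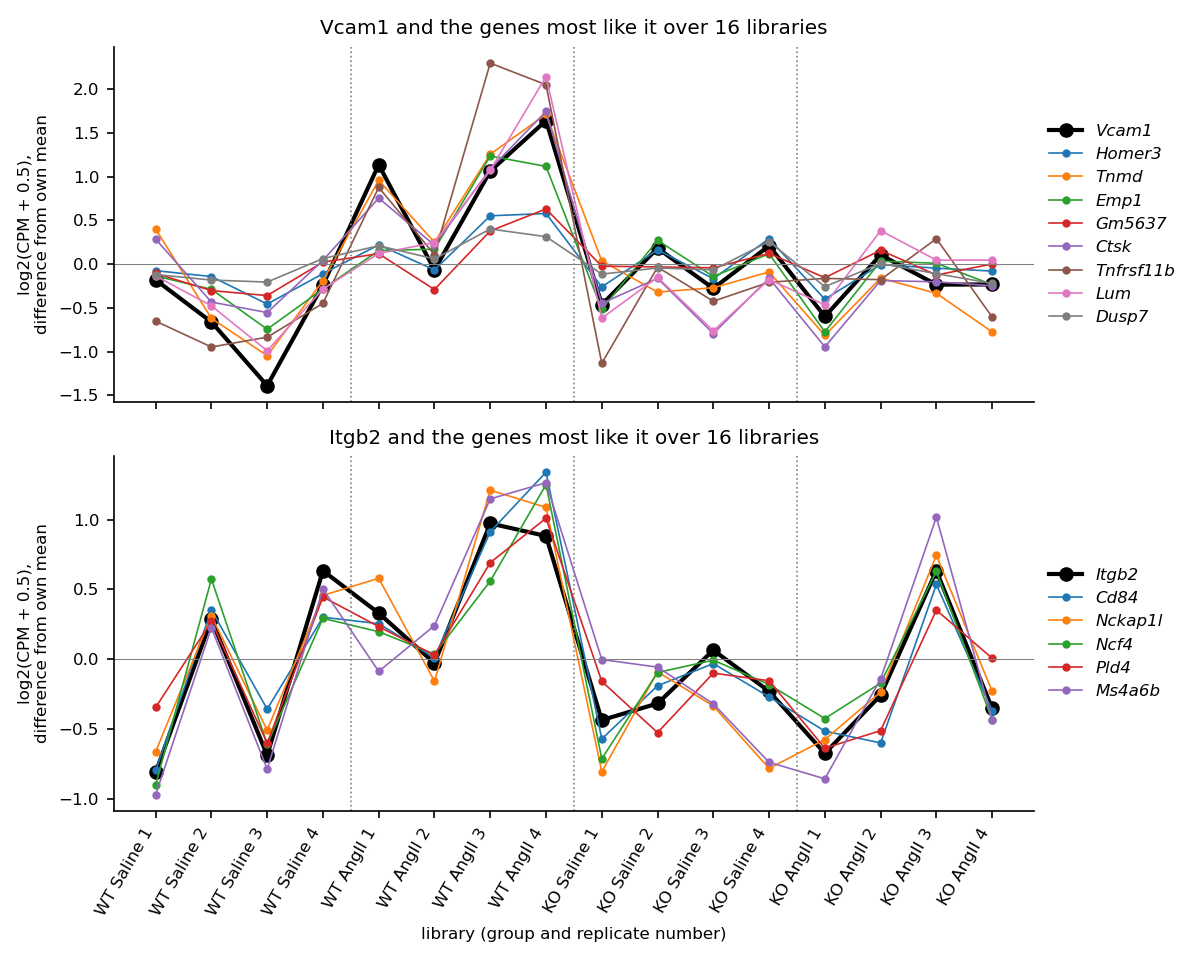
Difference of log2(CPM + 0.5) from a gene's own mean (vertical axes) in each of 16 libraries for Vcam1 and the 8 genes most like it (above), and for Itgb2 and the 5 most like it (below). Lines only join the points of a gene, and dotted lines part the groups. All 8 genes like Vcam1 have their 2 highest libraries in WT AngII replicates 3 and 4, and Vcam1 in replicates 1 and 4, and the Itgb2 group has a further peak in KO AngII replicate 3.

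In 7 lists of other adhesion genes, 0 of the 79 genes tested were called by edgeR for AngII against saline in either genotype. In WT, 11 of them (13.9%) had an unadjusted p under 0.05, against 8.8% of all genes, and DESeq2 and voom called 1 each, against 1.77% and 1.59% of all genes. In KO these counts were 15 of 79 (19%), against 19.2% of all genes, and 3 and 7, against 4.64% and 3.51%. Among 12 selectin ligands and their enzymes the median log2 fold change in WT was 0.27. Cd44, a hyaluronan receptor that can bind selectins, was at 35.5 ± 5.18 CPM with saline and 74.6 ± 30.5 CPM with AngII in WT, with no overlap (log2 1.07 ± 0.30, edgeR adjusted p = 0.184). Fut4, a fucosyltransferase for selectin ligands, was at 0.68 ± 0.12 and 1.49 ± 0.12 CPM, also with no overlap (edgeR adjusted p = 0.366). It had only 8 to 15 reads per library with saline and 22 to 24 with AngII. Of the 12 genes 3 were without overlap there, against 6.24% of all genes. Cd44 and Fut4 were named because they had the smallest p of the list in this comparison. None of the 12 was called by edgeR in any comparison.

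Of 8 other integrin chains, 2 were lower in KO than in WT under saline, where 3.01% of all genes were called and 11.1% had groups without overlap. Itgb3, the beta chain of the vitronectin receptor, was at 167 ± 63.3 CPM in WT and 44.1 ± 6.67 CPM in KO (log2 -1.92 ± 0.30, edgeR adjusted p = 0.00356). Itga9, an alpha chain that also binds VCAM-1, was at 606 ± 228 and 229 ± 20.2 CPM (log2 -1.41 ± 0.34, edgeR adjusted p = 0.0413). The Itgb3 call was kept on leaving out each of the 16 libraries (edgeR adjusted p from 0.000109 to 0.0165). The Itga9 call was lost on leaving out 12 of them: WT saline 1, 3 and 4, WT AngII 1, 2 and 4, KO saline 1 to 4, and KO AngII 1 and 2 (log2 -1.64 to -1.26, edgeR adjusted p from 0.00685 to 0.135). It was also lost with the replicate number as a block and with only the groups compared (edgeR adjusted p = 0.0617 and 0.0586). Neither overlapped, and the list's median was -0.55 against 0.05 for all genes. The 8 smooth muscle markers had a median of -0.93 in the same comparison with 0 called. All 8 were negative there, and 7 of 8 had an unadjusted p under 0.05, against 21.8% of all genes. Their part in these values was not tested.

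Of 14 genes of transmigration and junctions, 1 was called higher and 1 lower in KO under saline, against 3.01% of all genes. Under AngII 1 was called higher, against 2.03% of all genes. Cd47, an immunoglobulin-family ligand of SIRP alpha, was higher in KO with either infusion. With saline it was at 82.2 ± 6.59 CPM in WT and 148 ± 7.30 CPM in KO, and at 83.5 ± 11.3 and 150 ± 36.0 CPM under AngII (log2 0.85 ± 0.15 in both, edgeR adjusted p = 0.00941 and 0.00981). The call under AngII was lost with only the groups compared (0.83, edgeR adjusted p = 0.0946). Mcam, an adhesion molecule of endothelium and smooth muscle, was lower in KO saline, 428 ± 91.9 against 785 ± 214 CPM (log2 -0.87 ± 0.22, edgeR adjusted p = 0.0471), with values that overlapped. That call was lost on leaving out 13 of the 16 libraries: WT saline 1, 3 and 4, all 4 of WT AngII, KO saline 1 to 4, and KO AngII 1 and 2 (log2 -1.06 to -0.78, edgeR adjusted p from 0.00467 to 0.139). No filter, the replicate block and only the groups compared also ended it (edgeR adjusted p = 0.0569, 0.0581 and 0.123). The median of -0.93 for smooth muscle markers was in the same comparison, and their part in the Mcam value was not tested. Of 15 genes of NF-kB and the cytokines that act through it, 1 was called higher in KO saline, against 3.01% of all genes. This was Irf1, an interferon-response factor, at 43.9 ± 4.44 against 26.1 ± 2.13 CPM in WT saline (log2 0.75 ± 0.13, edgeR adjusted p = 0.00824). Under AngII the Irf1 difference was 0.49 ± 0.13 (edgeR adjusted p = 0.0638). The NF-kB list's median under AngII in WT was 0.08.

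By edgeR no gene was called in any comparison among 12 genes of integrin activation, 10 membrane linkers and sheddases, and 8 genes that restrain endothelial adhesion. For AngII in WT their medians were 0.28, 0.14 and 0.09. Rap1b, the GTPase that switches integrins on, had a log2 fold change of 0.32 ± 0.14 there, and talin Tln1 had -0.49 ± 0.25 (edgeR adjusted p = 0.487 and 0.614). Adam8, a sheddase of myeloid cells, had 1.31 ± 0.58 and filamin Flna -0.61 ± 0.35 (edgeR adjusted p = 0.522 and 0.672). Hmox1, heme oxygenase, was at 12.1, 10.5, 48.04 and 17.2 CPM in the WT AngII replicates and had 1.04 ± 0.41, or 0.32 without replicate 3. Nos3, the endothelial nitric oxide synthase, had -0.49 ± 0.25 (edgeR adjusted p = 0.427 for Hmox1 and 0.622 for Nos3).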

How the data were processed

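Bulk poly-A RNA of suprarenal aorta was measured in 16 libraries, 4 in each of 4 groups read from the sample titles. The authors deposited a table of raw read counts per gene (whole numbers, not normalized). HISAT2 2.0.5, DESeq2 1.20.0, featureCounts 1.5.0-p3 and the build GRCm39 are named per the submitters' processing notes. The sources used here give no annotation release or strand setting.

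edgeR's expression filter kept 15984 genes, and at least 99.47% of each library's reads. After TMM scaling all 16 libraries entered 1 quasi-likelihood fit of edgeR 4.0.16 under R 4.3.3, with 12 residual degrees of freedom and F tests. Tests were two-sided, and p-values were Benjamini-Hochberg adjusted over all genes tested. The SE is the absolute log2 fold change divided by the square root of F. CPM are TMM-normalised and given as mean ± SD over libraries. Ratios used log2(CPM + 0.5). Exon lengths came from the GENCODE annotation of GRCm38. On data simulated for AngII against saline in WT (15984 genes), the fit recovered 20.9% of genes changed by a log2 of 1, 74.6% at 2 and 98.5% at 3. p-values measure the spread between the deposited libraries.

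The members, the lists and the motif were chosen with earlier results of these data known, so no list is independent evidence. Named genes were all members, Vamp8, up to 4 called genes of each pathway list or else the 2 with the smallest p for AngII in WT, the 8 genes most correlated with Vcam1 and the 5 most correlated with Itgb2. Col1a1, Ly6a, Fn1, Vcan, Ptprc, Pecam1, Cdh5, Adgre1 and Cd3e were added to describe cell types. Alternatives were RLE scaling, no filter or a stricter filter, DESeq2 1.42.0, limma voom (limma 3.58.1), a replicate block, only the groups compared, a pseudocount of 0.1, and libraries left out.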

Additional observations from a re-analysis of the deposited data

Results flagged for a closer look

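In 36 groups of 4 values (9 members in 4 groups), 3 groups held a value far from the other 3 by Dixon's criterion, whose critical ratio for 4 values is 0.829. Chance alone gives about 1 in 20 groups. Icam2 was at 31.8 CPM in KO AngII replicate 2, above its 3 neighbours at 20.9 to 21.5 CPM. Itgal was at 11.5 CPM in KO AngII replicate 3, the library with the highest B cell marker sum. Itgam was at 2.46 CPM in KO saline replicate 3, below 3 libraries between 4.46 and 4.78 CPM.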

How the results depend on the processing

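No log2 fold change changed sign with a call under any alternative that was run. The number of members called became 0 for KO against WT under saline and for the average AngII effect with no filter and when KO AngII replicate 4 and the library labelled KO saline replicate 1 were left out together. It was 1 with DESeq2 for AngII in KO, KO against WT under AngII and the interaction and 2 for the average effect, and 1 with voom for AngII in KO. With only the groups compared it was 0 for AngII in WT. Leaving out 1 library at a time gave 0 to 1 members for AngII in WT, AngII in KO and both KO against WT comparisons, and 0 to 2 for the average effect. For Vcam1, DESeq2 gave log2 -1.29 for KO against WT under AngII (adjusted p = 0.00342), -1.77 for the interaction (adjusted p = 0.0368) and 0.73 for the average effect (adjusted p = 0.0473), while only the groups compared gave 1.59 for AngII in WT (edgeR adjusted p = 0.209). Leave-one-out ranges of Vcam1 were 1.36 to 1.87 for AngII in WT, -1.55 to -1.03 for KO against WT under AngII (edgeR adjusted p from 0.00882 to 0.179) and 0.60 to 0.85 for the average effect. The log2 ratio of Vcam1 to summed endothelial markers differed by 1.90 for AngII in WT (exact permutation p = 0.0286). With libraries left out the ratio to the mean of the markers differed by 1.5 to 2.29 for AngII in WT and by -2.03 to -1.24 for KO against WT under AngII. Whether replicate numbers pair the samples was not settled. The correlation of deviations of same-numbered libraries ran from -0.462 to 0.471, and libraries of different numbers were not compared. With the replicate block, AngII in WT had 0 members called (Vcam1 1.62, edgeR adjusted p = 0.0653) and AngII in KO had 1, Icam2. Over the whole table the genes called were 71 for AngII in WT, 8 for AngII in KO, 481 and 324 for KO against WT under saline and AngII, 3 for the interaction and 166 for the average effect. DESeq2 called 280, 734, 1362, 1230, 104 and 666, and voom 254, 561, 3197, 580, 173 and 549. The block called 42, 14 and 166 for AngII in WT, AngII in KO and KO against WT under AngII, and only the groups compared 4, 203 and 102 for AngII in KO and KO against WT under saline and AngII. With libraries left out in turn the counts ran over 3 to 115, 6 to 32, 105 to 1744, 100 to 845, 2 to 12 and 42 to 252. The causes were not tested. Reads per library were 5 to 74 for Sele, 20 to 210 for Itgal and 34 to 283 for Itgam. In counts simulated for AngII against saline in WT over 15984 genes, 20.9% of genes changed by log2 1 were recovered.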
